A study of Mus musculus with 2 samples.

Results

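The genes described here are 10 loci with provisional names, Gm21761, Gm21818, Gm20767, B020031M17Rik, Gm428, Gm5660, Gm11238, Gm6494, Gm28940 and Gm8016, out of 55415 features measured. They were chosen by symbol, with earlier results of these data in view, as genes without an established function that are most restricted to 2C-like cells. Their higher level in reporter-positive and in Zscan4-rich cells is therefore the reason for their choice and is given as a description. The data are single-cell transcriptomes of mESC, cultured mouse embryonic stem cells that keep the potential to form all embryonic tissues, of a line that carries GFP under the MERVL promoter and an H2B-mIFP fusion, a fluorescent histone for following cells. Both groups share these transgenes: 1 library is labelled MERVL GFP positive and 1 is labelled MERVL GFP negative. The labels give no treatment and no time, and do not say how the cells were separated or whether the line is a clone. With 1 library in each group, no difference has a replicate check and no test was possible, and library, batch and group cannot be told apart.

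At any time a small share of such cells transiently transcribes genes of the 2-cell embryo, among them the endogenous retrovirus MERVL and the Zscan4 family, nuclear proteins linked to telomere maintenance. These cells are called 2C-like. The transcription factor DUX can start this programme by binding MERVL long terminal repeats and other sites. Such a repeat can act as the promoter and first exon of a neighbouring gene. Other genes of the programme, such as the Tcstv genes (a variable group of 2-cell-stage genes), lie in clusters of near-identical copies.

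Of the 10 genes, 6 fell into 2 clusters in the GENCODE annotation of GRCm38, the assembly called mm10 in the submitters' processing notes. Gm21761 (chr13:119912095-119929272, minus strand), B020031M17Rik (chr13:119949357-119950806, minus strand), Gm20767 (chr13:120140246-120155335, plus strand) and Gm21818 (chr13:120172433-120173888, plus strand) are protein-coding genes in the interval from Tcstv1 to Tcstv3. Their transcripts were 87.7% to 98.4% identical to each other, and Gm21818 was 95.7% identical to Tcstv1. The open reading frames were of similar length, from 507 bases in Gm20767 to 519 bases in B020031M17Rik. The first 90 coding bases are shown because they let the copies be told apart or not; capitals mark bases that differ from Gm21761.
Gm21761: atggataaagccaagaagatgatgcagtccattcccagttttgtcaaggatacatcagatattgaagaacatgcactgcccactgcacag
Gm21818: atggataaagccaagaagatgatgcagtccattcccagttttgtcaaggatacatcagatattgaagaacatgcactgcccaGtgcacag
Gm20767: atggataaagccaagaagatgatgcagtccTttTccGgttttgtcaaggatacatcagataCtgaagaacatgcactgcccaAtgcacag
B020031M17Rik: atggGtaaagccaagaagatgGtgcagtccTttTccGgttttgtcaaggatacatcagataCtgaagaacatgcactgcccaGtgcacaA
Gm21818 differed from Gm21761 at 1 of these bases, Gm20767 at 5 and B020031M17Rik at 8. Tcstv1 and Tcstv3 each differed from Gm21761 at 1.

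The second cluster holds Gm11238 (chr4:73607881-73657291, plus strand) and Gm428 (chr4:73683516-73687558, plus strand), protein-coding genes of 6 exons whose transcripts were 99.4% identical. Their first 90 coding bases were the same, and 1 sequence stands for both.
Gm428: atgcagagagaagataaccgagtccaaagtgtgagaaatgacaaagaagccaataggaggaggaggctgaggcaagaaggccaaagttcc
Each had 4 relatives of at least 99% identity in the annotation. How the authors' counting treated reads that fit several copies is not given in the sources used here, so the value of a single copy in either cluster is uncertain, more so than the sum over the copies.

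The other 4 genes lie outside both clusters and lack an annotated coding sequence. Gm5660 (chr12:115615673-115616821, plus strand) is annotated as a processed pseudogene and was 92.4% identical to Cdc5l, which encodes a splicing factor. Gm6494 (chr10:58757270-58759567, plus strand) is a processed pseudogene too and was 85.3% identical to Zc3h11a, which encodes a zinc finger protein of mRNA export, and equally to Gm38394, a coding gene that was matched to no feature. Gm28940 (chr1:82392493-82402746, minus strand) is a 3-exon transcript antisense to Rhbdd1, a rhomboid protease gene. Gm8016 (chr13:68353364-68356825, minus strand) is a 3-exon long intergenic noncoding RNA on the chromosome of the first cluster. It was 97.6% identical to Gm48419, Gm7969 and Gm48423, which are on chromosome 13 too and were listed with 0 UMIs in both libraries. Gm49187 on chromosome 15, 97.6% identical over 1379 bases against 1576 for the others, had 205 UMIs in the positive and 0 in the negative library. Gm5660 had 11 and Gm8016 had 4 other genes of at least 90% identity, so the doubt about reads that fit several copies holds for them as well.

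The first exons of the noncoding pair Gm28940 and Gm8016 are shown because they resemble each other and the starts of many other transcripts; capitals mark the longest run the pair shares, of 27 bases.
Gm28940: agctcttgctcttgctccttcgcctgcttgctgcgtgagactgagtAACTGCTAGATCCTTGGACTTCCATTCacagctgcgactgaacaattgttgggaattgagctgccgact
Gm8016: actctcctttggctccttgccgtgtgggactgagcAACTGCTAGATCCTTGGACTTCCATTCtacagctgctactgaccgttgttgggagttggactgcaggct
The exon of Gm28940 (115 bases, chr1:82402632-82402746) and that of Gm8016 (104 bases, chr13:68356722-68356825) aligned over 97 bases at 84.5% identity. The shared run of 27 bases lay within the first 150 bases of a transcript of 158 of 55341 annotated genes, or 0.286%. No repeat annotation was used, so the element these exons belong to is not named.

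The first exon of Gm28940 matched the start of transcripts of 83 other genes at an identity of at least 90% over at least 80% of its length. Of the 10 genes described here, Gm21761 and Gm20767 were among the 83, with identities of 98.1% and 97.2% to the exon. The remaining 81 included Platr31, a long noncoding RNA, and Prex2, a guanine nucleotide exchange factor gene. The match is to 1 annotated transcript of each gene, while counts are per gene, so the counts do not show which start was used.

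Upstream sequence was found in RefSeq's promoter table (GRCm38.p6, 250 bases before to 50 after each start) for 2 of the 10 genes. The 250 bases before the start of each are shown, with motif matches in capitals. The motifs were GATTNAATC, letters of the double homeodomain site that DUX recognises, and the TATA forms TATAAA and TATATAA, searched on both strands; they were chosen after the sequences were seen. No motif matched at the same bases as another.
Gm21761, chr13:119913469-119913718, minus strand: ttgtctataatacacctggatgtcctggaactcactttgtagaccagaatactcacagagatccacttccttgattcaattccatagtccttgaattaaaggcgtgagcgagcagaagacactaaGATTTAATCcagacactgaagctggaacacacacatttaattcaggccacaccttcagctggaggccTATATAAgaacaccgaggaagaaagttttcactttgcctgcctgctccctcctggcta
Gm428, chr4:73683264-73683513, plus strand: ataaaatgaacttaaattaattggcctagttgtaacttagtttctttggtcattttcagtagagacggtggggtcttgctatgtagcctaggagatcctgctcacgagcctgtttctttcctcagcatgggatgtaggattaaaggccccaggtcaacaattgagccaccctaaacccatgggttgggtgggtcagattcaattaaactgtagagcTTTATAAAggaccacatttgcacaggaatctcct
The Gm21761 window held 1 GATTNAATC match from base 126 and 1 TATATAA match from base 193. In the Gm428 window TATAAA matched once on each strand, at overlapping bases, the first match starting at base 217, and GATTNAATC did not match. Over all 32851 promoters of the table, 0.268% held GATTNAATC, 13.6% held TATAAA and 3.24% held TATATAA. The RefSeq start of Gm21761 lies inside its GENCODE gene, downstream of the start whose first exon resembles that of Gm28940. A match is a description of letters and not a binding site.

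The positive library had 4603 barcodes and 138364094 unique molecular identifiers (UMIs, taken as molecule counts), and the negative library had 3832 barcodes and 156406894 UMIs. Per cell the median was 29555 and 39100 UMIs in the cells kept. The libraries share 3 barcodes. All 9 pluripotency markers on the list used to check the labelled cell type had UMIs in both libraries. GFP, which checks the labels, had 205 CPM (UMIs per 1000000 UMIs of the cells summed) in the positive and 0.454 CPM in the negative library. All intervals given are at 95% and reflect counting error alone.

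The 10 genes together gave 373982 UMIs (2704 CPM) in the positive library and 161 UMIs (1.03 CPM) in the negative library. In the positive library this was 0.270% of all UMIs. Within each library, all of them were listed with at least 1 UMI except Gm428, which had 0 in the negative library.

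The chromosome 13 copies were the most abundant. Gm21761 had 1173 CPM in the positive library (exact Poisson interval 1167 to 1179) and 0.300 CPM, from 47 UMIs, in the negative one (0.221 to 0.400). Gm21818 had 517 CPM (514 to 521) and 0.0639 CPM, from 10 UMIs. Gm20767 had 503 CPM (499 to 506) and 0.134 CPM, from 21 UMIs. These 3 genes are annotated as coding for related short proteins, and the CPM ratio between libraries was 3903 (2935 to 5312) for Gm21761, 8091 for Gm21818 and 3743 for Gm20767. B020031M17Rik, the most diverged copy of the cluster, had 273 CPM (270 to 276) and 0.0575 CPM, from 9 UMIs. Per kilobase of annotated transcript the order was Gm21761 (854 CPM per kb), Gm21818 (579), Gm20767 (352) and B020031M17Rik (295).

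The chromosome 4 pair was far less abundant. Gm11238 had 28.8 CPM in the positive library (27.9 to 29.7) and 0.0448 CPM, from 7 UMIs, in the negative library. Gm428 had 20.8 CPM (20.03 to 21.55) and 0 UMIs, which with a floor of 3 UMIs for the whole negative library makes it at least 1083-fold higher in the positive library. Per kilobase these 2 genes had 21.8 and 15.7 CPM, the latter the lowest of the 10.

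The pseudogenes and noncoding RNAs were nearer to the chromosome 4 pair than to the chromosome 13 copies. Gm6494 had 66.3 CPM in the positive library (65.0 to 67.7) and 0.115 CPM in the negative one, and Gm5660 had 24.4 CPM (23.6 to 25.3) and 0.0831 CPM. Gm28940 had 62.5 CPM (61.2 to 63.8) and 0.192 CPM, and Gm8016 had 35.3 CPM (34.4 to 36.3) and 0.0384 CPM. Per kilobase these 4 genes had 21.3 to 37.1 CPM.

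All 10 genes passed a size rule that required at least 10 CPM in either library, at least 50 UMIs in total and CPM + 1 at least 4 times as high in the positive as in the negative library. The rule was passed by 3.0% of the 8042 genes measured well enough to be judged by it. Since the genes were chosen for this contrast, nothing is read from the count. Their median log2 ratio of CPM + 1 was 5.83, against 0.14 over all genes judged. Of 42 other genes known from the 2C-like state (Zscan4 genes left out), 39 were in the feature table and 37 had a UMI. Without the filter on low values 25 of these 37 reached the ratio, and their median log2 ratio was 4.41. Over all 35237 genes with a UMI, also without the filter, 0.982% reached it and the median was 0.03. The filter differs from that behind the 5.83 and 0.14. The 24 other 2C genes that could be judged with the filter reached 10 CPM in the positive library alone, so their passing is no support.

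**Figure D1:**
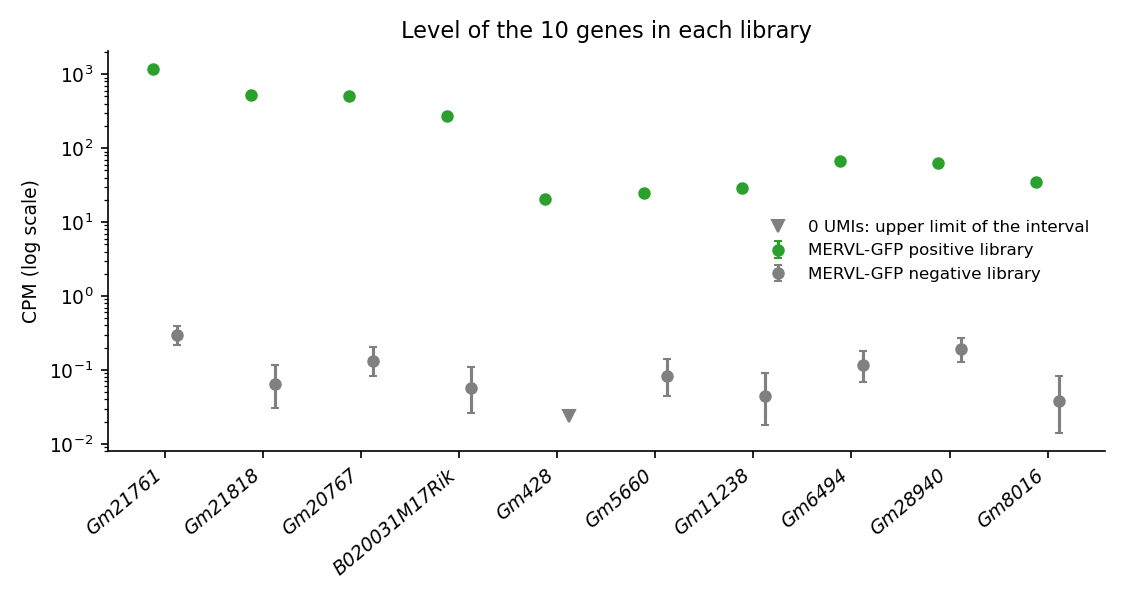
CPM of each of the 10 genes, on a log axis, in the MERVL-GFP positive (green) and negative (grey) library; points are library sums, bars are exact Poisson 95% intervals, and the triangle is the upper limit for Gm428, which had 0 UMIs. Each positive-library point lies above 20 CPM and each negative-library point below 0.4 CPM.

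Genes that resemble the 10 in sequence or position were measured with very different levels. In the 425-kb interval from Tcstv1 to Tcstv3, 17 other genes were in the feature table, of which 8 had 0 UMIs in the positive library. The 5 most abundant (Gm21762, Gm21731, AF067061, BC147527 and Tcstv3) had 12.5 CPM (Gm21731) to 53.1 CPM (Tcstv3) in the positive library and 0 to 2 UMIs in the negative library. On chromosome 4, 8 other relatives of Gm428 had between 0 and 574 UMIs in the positive library; only Gm11487 had more than 10. The listed zeros of near-identical copies are values of the counting as deposited and do not show that a copy is silent.

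The coding genes most like the pseudogenes differed less between the libraries, or were level, in the counts as deposited. Cdc5l had 419 CPM in the positive and 422 CPM in the negative library, next to 24.4 and 0.0831 CPM for Gm5660. Zc3h11a, whose reads may also fit Gm38394, had 4.74 and 3.33 CPM, next to 66.3 and 0.115 CPM for Gm6494. Rhbdd1, which lies opposite Gm28940, had 6.23 and 3.44 CPM. Rhbdd1 stayed at 6.27 CPM in cells without Zscan4 UMIs and 6.79 CPM in Zscan4-rich cells, while Gm28940 went from 24.8 to 186 CPM between the same cells; whether the authors' counting used strand is not given in the sources used here.

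Of the 81 other genes that start like Gm28940, 75 had a UMI in either library, and 32 of these, or 42.7%, reached the ratio of 4 in favour of the positive library without a filter on low values. Over all 35237 genes with a UMI the share was 0.982%. Genes of very low level cannot reach this ratio of CPM + 1, and only 8042 of the 35237 could be judged with the filter. The 2 shares were not matched for level, so they are given as a description. The median log2 ratio of the 75 was 1.59, against 0.03 over all genes with a UMI. With the filter 32 could be judged and 21 passed, but 20 of the 21 met it in the positive library alone, so no share is read from them. Platr31 had 326 CPM in the positive and 0.352 CPM in the negative library, and Prex2 had 223 and 11.4 CPM. The 11 judged genes that did not pass had log2 ratios from -0.14 (Gnpnat1) to 1.97 (Dhtkd1), and included Rbm25, an RNA-binding protein gene with 720 and 296 CPM, and Platr25 with 19.6 and 12.1 CPM. The first exon of Gm8016 matched the start of 11 other genes, of which 1 could be judged and did not pass.

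To order the genes by how early they appear along the 2C-like programme, positive-library cells were thinned to 10000 UMIs each and grouped by their summed Zscan4a to Zscan4f UMIs. There were 1933 cells with 0, 944 with 1, 664 with 2 to 4, 372 with 5 to 9 and 489 with 10 or more, and 194 shallower cells were left out. A class of 0 holds for thinned UMIs only: before thinning, 843 of the 1933 cells had 0 Zscan4 UMIs. Together the 1933 cells held 31.3 CPM of Zscan4. The level of a gene in each class was set against its own level in the top class, so that abundant and rare genes can be compared. Zscan4 UMIs of single cells are a reading of state and not of time. Across the classes the median depth fell from 32916 to 19996 UMIs per cell, the median mitochondrial share went from 2.36% to 3.21%, and the summed pluripotency markers fell from 15154 to 8722 CPM. Summed primitive endoderm markers (8 of 8 with UMIs in each class) went from 261 to 96.8 CPM, while the share of cells with a thinned UMI of them went from 32.5% to 43.8%, and trophoblast markers (5 or 6 of 6) from 35.3 to 14.9 CPM, and fibroblast markers stayed between 3.05 and 4.96 CPM; their part in the order was not tested.

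All 10 genes passed the same size rule between the top class and the class with 0 Zscan4 UMIs, which 4.23% of 8457 genes did. They were chosen for this contrast too, so nothing is read from the count. Gm28940 and Gm8016 stood apart from the other 8 in the middle classes. Gm28940 had 24.8 CPM at 0 Zscan4 UMIs, 46.8 at 1, 91.2 at 2 to 4, 150 at 5 to 9 and 186 at 10 or more. Gm8016 had 16.1, 21.3, 50.8, 82.6 and 109 CPM in the same order of classes. At 1 Zscan4 UMI Gm28940 was thus at 25.2% of its top level (exact conditional interval 23.5 to 26.9) and Gm8016 at 19.5% (17.7 to 21.4). At 5 to 9 Zscan4 UMIs these noncoding RNAs were at 80.5% and 75.5% of their top level.

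The other 8 genes were low until Zscan4 was abundant. At 1 Zscan4 UMI they were at 3.63% (Gm5660) to 7.67% (Gm20767) of their top level, and the median over all 10 genes was 6.79%. In cells of 20000 to 30000 UMIs these 8 genes were at 5.42% (Gm5660) to 14.2% (Gm428), and the median over the 10 was 12.03%. Gm21761 had 238, 302, 1070, 2621 and 7770 CPM from the lowest to the highest class, so that it was at 33.7% of its top level in the class just below the top. Gm21818 went from 137 to 2901 CPM and Gm20767 from 139 to 2691 CPM. Gm5660 had 3.17, 6.12, 25.5, 57.0 and 169 CPM, and Gm6494 had 14.5, 21.5, 55.1, 154 and 428 CPM. Both pseudogenes were near the relative level of Gm21761 at 5 to 9 Zscan4 UMIs, with 33.8% for Gm5660 and 35.9% for Gm6494. B020031M17Rik was at 6.25% at 1 Zscan4 UMI and 53.5% at 5 to 9, the third highest there. The chromosome 4 pair could not be separated at 1 Zscan4 UMI, with 7.11% for Gm428 (6.20 to 8.13) and 7.38% for Gm11238 (6.57 to 8.27).

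**Figure D2:**
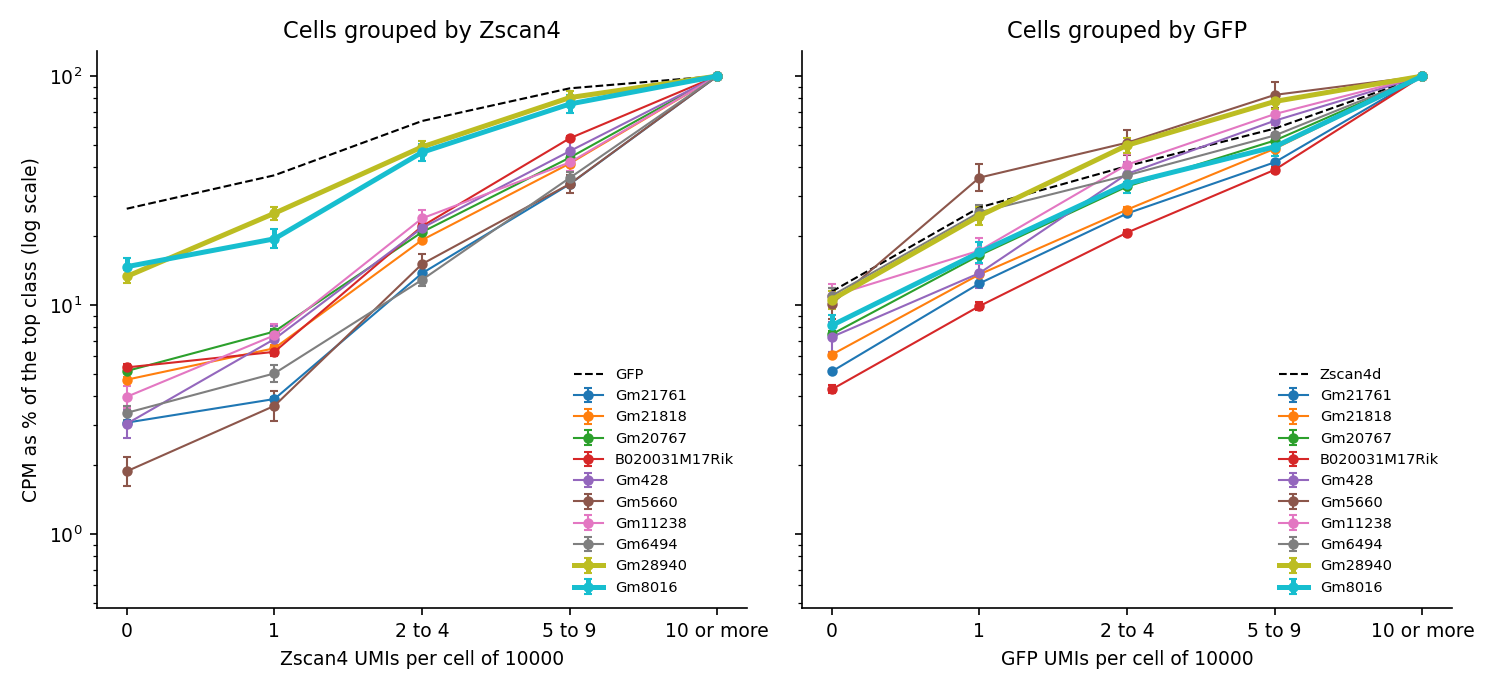
Level of each gene as a percentage of its CPM in the top class, on a log axis, in positive-library cells grouped by thinned Zscan4 UMIs (left) or GFP UMIs (right); bars are exact conditional 95% intervals, thick lines mark Gm28940 and Gm8016, and dashed lines show GFP (left) and Zscan4d (right). On the left the thick lines lie above the other 8 genes up to the class of 5 to 9, and on the right they do not.

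The place of the 10 genes among others depended on the genes they were set against. Over 30 other 2C genes with at least 50 UMIs the median at 1 Zscan4 UMI was 7.60%, and Gm28940 was above 29 and Gm8016 above 28 of them, while the other 8 were above 2 (Gm21761 and Gm5660) to 15 (Gm20767). Over the 241 genes past the size rule the median was 20.7%, and 154 of them were below Gm28940, 111 below Gm8016 and 42 or fewer below each of the rest. The reporter transcript was at 36.9% of its top level at 1 Zscan4 UMI, above all 10 genes. Of the 21 genes that start like Gm28940 and passed the size rule, the median was 17.3%, with a range of 2.68% to 31.5%; Gm21761 and Gm20767, which start like it too, were at 3.89% and 7.67%.

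The place of Gm28940 and Gm8016 held in 13 of 15 other settings in which the classes were built or the cells chosen differently, though which of the pair came first did not. Their values were less stable. Without cells that had 2 or more endoderm marker UMIs they were at 16.2% and 14.5%, in cells of 20000 to 30000 UMIs at 41.7% and 34.0%, and after the level in cells without any 2C UMIs was subtracted Gm8016 was at 12.9%.

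The 2 exceptions came from other rulers of the state. When cells were grouped by GFP UMIs in place of Zscan4, the pseudogene Gm5660 led: at 1 GFP UMI it was at 36.0% of its level at 10 or more (31.4 to 41.4). Gm6494 at 25.4% (23.5 to 27.5) and Gm28940 at 24.5% (22.5 to 26.8) could not be separated, and they were followed by Gm11238 at 17.3% and Gm8016 at 16.98%. B020031M17Rik came last on this ruler, at 9.90%. Grouped by the summed other 2C genes, Gm28940 was first at 6.78% and Gm8016 was at rank 4 with 4.78%. An order of the 10 genes thus holds for the ruler by which it was read.

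Cells with thinned UMIs of only 1 of the 2 transcripts were then compared. Among thinned positive-library cells, 924 had GFP but no Zscan4 UMI, 670 had Zscan4 but no GFP UMI, 1799 had both and 1009 had neither. These are classes of low count and not of absence. Over all UMIs, GFP had 42.2 CPM in the Zscan4-only cells and 25.8 CPM in the cells with neither, against 227 CPM in the GFP-only cells. In GFP-only cells Gm8016 had 26.5 CPM against 19.5 CPM in Zscan4-only cells, a ratio of 1.36 (1.21 to 1.53), and Gm28940 had 43.7 against 37.2 CPM, a ratio of 1.18 (1.08 to 1.28). B020031M17Rik had 120 and 122 CPM, a ratio of 0.982 whose interval, 0.934 to 1.03, includes 1. The remaining 7 genes were lower in the GFP-only cells, with ratios from 0.339 for Gm5660 to 0.766 for Gm21818. For Gm21761 the levels were 377 CPM in GFP-only and 617 CPM in Zscan4-only cells. Every gene was lowest in cells with neither transcript, where Gm21761 had 116 CPM and Gm428 had 1.39 CPM, and highest in cells with both.

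**Figure D3:**
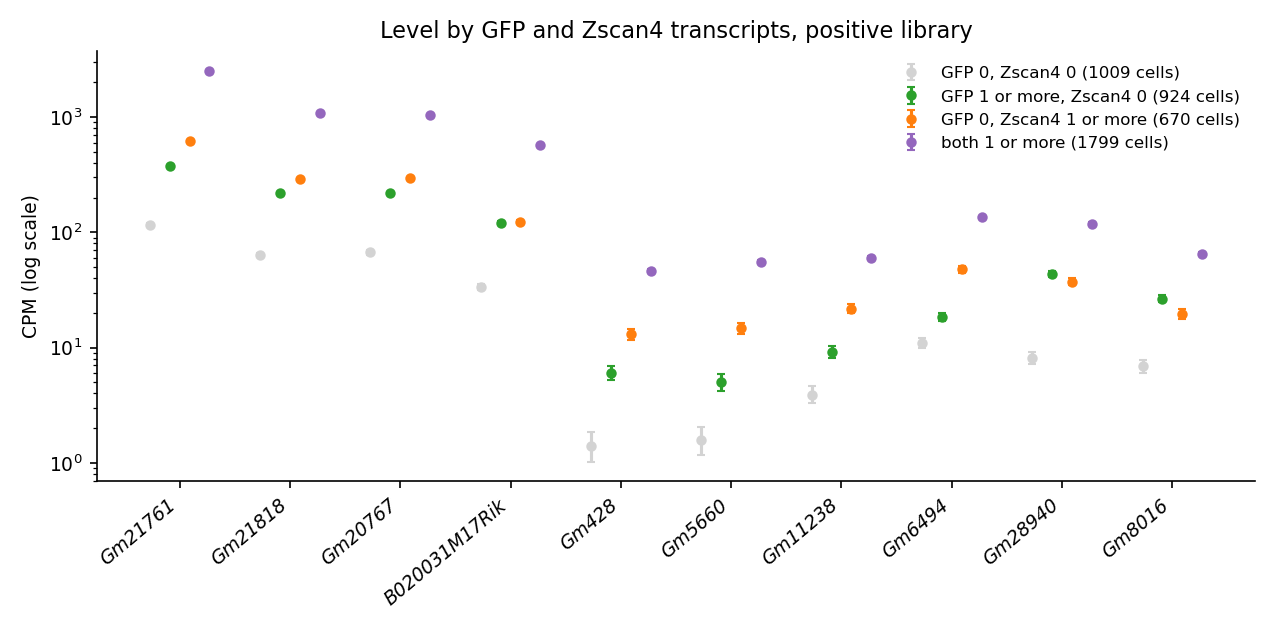
CPM of each gene, on a log axis, with exact Poisson 95% intervals. Positive-library cells had thinned UMIs of neither GFP nor Zscan4 (grey), GFP only (green), Zscan4 only (orange) or both (purple). For Gm28940 and Gm8016 the green point lies above the orange one, for B020031M17Rik the 2 meet, and for the other 7 genes green lies below orange.

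Detection at low Zscan4 was then read against cells with few or no other signs of the 2C-like state. Of 1933 positive-library cells with 0 thinned Zscan4 UMIs, 93.3% (exact binomial interval 92.1 to 94.4) had at least 1 UMI of the 10 genes, against 0.760% of 3814 such cells of the negative library (0.510 to 1.09). However, 94.4% (86.4 to 98.5) of the 72 positive-library cells with no thinned Zscan4, GFP or other 2C UMI had one too. Their median depth was 35540 UMIs against 32916. In 103 cells with 5 or more thinned endoderm marker UMIs and neither Zscan4 nor GFP, called endoderm-marker cells from here on, the share was 94.2%, at a median depth of 34312 UMIs. The share of 93.3% is thus no higher than the background within the positive library, and no expression is read from a single UMI.

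A count of at least 10 UMIs was read next. At least 10 UMIs of the 10 genes were found in 190 of the 1933 cells with 0 Zscan4 UMIs, or 9.83% (8.54 to 11.2). Of the 72 cells without any 2C UMI, 0 reached that number, as did 0 of the 3814 negative-library cells, which allows shares of up to 4.17% and 0.0787%. The 72 were picked for 0 UMIs of 2C genes that vary with the 10, such as Eif1ad8 (Spearman rho 0.714 with their sum). Nothing is therefore read from their 0. Of all 1009 cells with neither Zscan4 nor GFP, 21 did, or 2.08% (1.29 to 3.16). Of the 103 endoderm-marker cells among them, 8 did, or 7.77% (3.41 to 14.7), an interval that includes the 9.83%. This split was chosen after the values were seen. GFP UMIs were present in 169 of the 190 cells, or 88.9%, and in 43.3% of the other 1743. At least 2 UMIs of endoderm markers were present in 41.6% of the 190 and 13.3% of the rest; the part of these markers in the result was not tested. Before thinning, 60 of the 190 cells still had 0 Zscan4 UMIs, at a median depth of 28177 UMIs for all 190.

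Levels within Zscan4-negative cells told the genes apart. In cells with GFP but no Zscan4 UMI, Gm28940 had 43.7 CPM against 4.30 CPM (2.15 to 7.69) in the 72 cells without any 2C UMI, and Gm21761 had 377 CPM against 91.1 CPM (79.7 to 104). Gm8016 had 26.5 CPM against 8.21 CPM (5.08 to 12.5). In the 103 endoderm-marker cells without Zscan4 and GFP, Gm8016 had 30.3 CPM (24.9 to 36.5), above its 6.88 CPM in all 1009 cells without both transcripts, and Gm28940 had 17.6 CPM (13.6 to 22.5) against 8.12 CPM. Gm428 in those 103 cells had 1.65 CPM (0.606 to 3.60), which overlaps its 1.39 CPM in the 1009. The coding genes Gm20767, with 111 CPM (100 to 122) against 66.9, and Gm21818, with 90.9 CPM (81.3 to 101) against 64.0, were also higher in the 103 cells. For these 4 genes the difference exceeded the counting intervals, and for Gm428 and the other 5 genes the intervals overlapped.

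The mix of the 10 transcripts shifted along the classes. Gm28940 gave 3.78% of the 42660 UMIs of the 10 genes in cells with 0 Zscan4 UMIs (3.60 to 3.96), 5.21% at 1 UMI and 1.17% at 10 or more. Gm21761 went the other way, from 36.3% at 0 to 48.8% at 10 or more. In the 72 cells without any 2C UMI, Gm28940 gave 1.82% of the UMIs (0.910 to 3.22) and Gm21761 gave 38.4% (34.6 to 42.5).

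The 10 genes were then counted per cell, where a single UMI counts as found and the background within the library therefore matters. At least 5 of them had a thinned UMI in 1319 of 4402 positive-library cells, or 29.96% (28.6 to 31.3). In the negative library 0 of 3824 cells did, so that by the limit of 3 counts a share of up to 0.0785% is possible. Within the positive library, 0 of the 72 cells without any 2C UMI did, which allows up to 4.17%. A low share goes with how these 72 cells were picked, so nothing is read from it. In the same library, 29 of the 1009 cells with neither Zscan4 nor GFP did, or 2.87%, and 6 of the 103 endoderm-marker cells, or 5.83%. By Zscan4 class the share was 8.90%, 17.6%, 42.9%, 74.5% and 85.7%, and the median number of genes per cell was 2, 3, 4, 6 and 7. All 10 were found together in 37 cells. The share depends on depth: without thinning it was 58.9%, and after thinning to 5000 UMIs it was 20.2%.

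**Figure D4:**
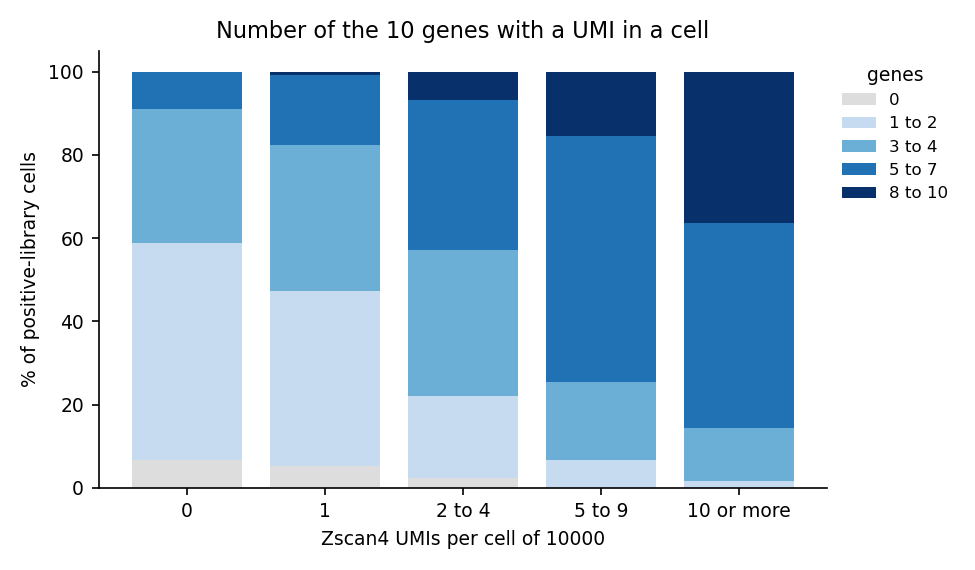
Share of positive-library cells, in %, by how many of the 10 genes had a thinned UMI (shades from grey for 0 to dark blue for 8 to 10), in 5 classes of Zscan4 UMIs. Cells with 5 or more genes make up 8.90% of the lowest class and 85.7% of the highest.

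Correlations between pairs of the genes are descriptions over cells that share a library and a fixed depth. Over the 4402 thinned cells the median Spearman rho of the 45 pairs was 0.334. It was 0.526 over the 6 pairs within the chromosome 13 cluster, 0.416 for the chromosome 4 pair and 0.325 over the 38 remaining pairs. Within a cluster, reads that fit several copies may add to rho, which was not tested. The highest pair outside the clusters was Gm20767 with Gm28940, at 0.547. Gm28940 had a rho of 0.498 with Gm21818 and 0.310 with B020031M17Rik, whose annotated starts do not match its first exon. With Gm20767 and Gm21761, whose starts do, Gm28940 had 0.547 and 0.460. In the 489 cells with 10 or more Zscan4 UMIs the medians were 0.590, 0.520 and 0.250 in the same order, and the highest pair outside the clusters was Gm21761 with Gm6494, at 0.489.

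Within those 489 cells Gm8016 had a rho of 0.0303 to 0.0586 with the chromosome 4 pair and the pseudogenes. A Gm428 UMI was found in 40.4% of Gm8016-positive cells there (32.9 to 48.1) and in 36.8% of Gm8016-negative cells (31.5 to 42.4). In contrast, Gm428 was found in 55.6% of cells with Gm11238 (49.1 to 61.9) and 20.7% of cells without it (15.8 to 26.3). Over all cells the shares were 22.0% (18.9 to 25.3) and 9.29% (8.38 to 10.3) with and without Gm8016, and 39.3% and 6.19% with and without Gm11238.

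**Figure D5:**
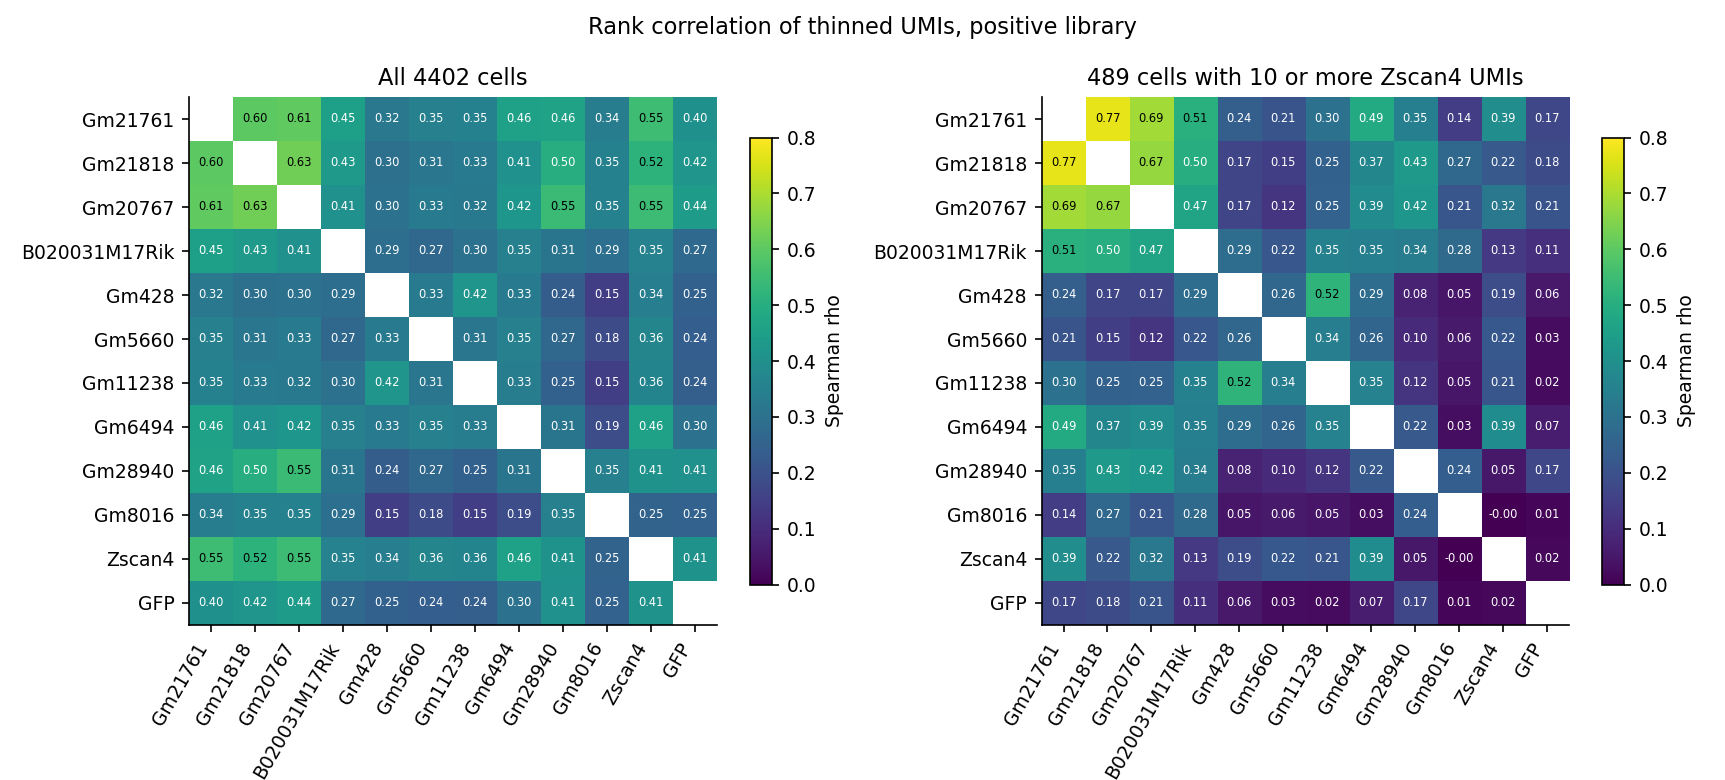
Spearman rho between thinned UMIs of the 10 genes, the summed Zscan4 family and GFP, over all 4402 thinned positive-library cells (left) and over 489 cells with 10 or more Zscan4 UMIs (right); the colour scale runs from 0 to 0.8. The chromosome 13 copies at the upper left form the brightest block in both panels, and the row of Gm8016 darkens in the right panel.

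Cells of the top Zscan4 class differed widely in single genes. Gm21761 had a mean of 86.1 thinned UMIs per cell and a median of 61, and 9 of 489 cells had 0. B020031M17Rik had a mean of 15.7 but a median of 2, with 141 cells, or 28.8% (24.9 to 33.1), at 0 and up to 194 UMIs in 1 cell. The 49 cells with the most B020031M17Rik held 56.9% of its UMIs, against 32.3% for Gm21761, 38.4% for Gm21818 and 31.6% for Gm20767. Its UMIs were thus spread less evenly than those of the 3 related copies. For genes with lower means the shares were 47.4% for Gm6494 (mean 4.88) and 29.3% for GFP (mean 4.81). Of the rarest, Gm8016 (mean 1.21) had 68.8% and Gm428 (mean 1.32) 61.3% of its UMIs in 49 cells.

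The 141 top-class cells without B020031M17Rik had fewer UMIs of all the other 9 genes than the 203 cells with 5 or more B020031M17Rik UMIs. They had a mean of 45.4 Gm21761 UMIs (SE over cells 5.23), against 123 (SE 6.45) in the 203. The genes outside the cluster differed as well, such as Gm11238 with means of 0.660 (SE 0.159) and 2.86 (SE 0.286) and Gm6494 with 1.93 (SE 0.225) and 6.63 (SE 0.695). GFP differed less, with means of 4.58 (SE 0.359) and 5.29 (SE 0.301). The median depth was 23385 UMIs in the former and 18363 in the latter cells, and median Zscan4 was 16 and 21 UMIs. Cells of 1 library are not replicates, so these SEs give the precision of a mean over these cells only. They are smaller than the spread between cells.

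Among 9677 other genes found in at least 5% of thinned positive-library cells, those most like the sum of the 10 genes were Eif1ad8 (Spearman rho 0.714 over 4402 cells), Platr31 (0.672), Eif1ad15 (0.668), Zfp560 (0.633) and Gm13228 (0.625). Eif1ad8 and Eif1ad15 are copies related to a translation initiation factor, and Zfp560 is a zinc finger gene. Eif1ad8 had 650 CPM in the positive and 0.761 CPM in the negative library, and Eif1ad15 had 564 and 0.492 CPM. With Eif4a3l1 (420 CPM), they were the 3 most abundant of the other 2C genes in the positive library. At 1 Zscan4 UMI Eif1ad8 was at 7.81% and Eif1ad15 at 7.39% of the top level, near the median of the 10 genes, while Platr31, which starts like Gm28940, was at 21.7%.

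The few UMIs in the negative library lay partly in a few cells and were otherwise scattered. Of 3832 cells, 92 had a UMI of any of the 10 genes, and 7 had 2 or more of the genes. The 161 UMIs included 36 in 1 cell and 16 in another, and the next cells had 8, 6 and 4. The cell with the most different genes had 6 of the 10, and 5 cells had 3 or more. In the same library 2 cells had 10 or more Zscan4 UMIs before thinning, and they held 1 and 8 UMIs of the 10 genes. GFP UMIs were present in 56 cells, of which 3 had a UMI of the 10 genes.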

How the data were processed

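For each library the authors deposited a matrix of integer counts (genes by cells), which are read here as UMIs; FastQC 0.11.2, Trim Galore 0.6.4, STAR 2.7.6a and mm10 are named per the submitters' processing notes, and the counting, annotation and cell calling are not given in the sources used here. The extraction text in the labels describes kits for bulk RNA.

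Cells with at least 1000 UMIs, 500 genes and at most 20% mitochondrial UMIs were kept (4596 and 3832). UMIs were summed over cells and scaled to CPM. Shares, classes and correlations used cells reduced at random to 10000 UMIs each; 194 and 8 shallower cells were left out. No doublet caller was run; an alternative left out cells above 2 times the median UMIs. Ratios have exact conditional, shares exact binomial (Clopper-Pearson) and levels exact Poisson 95% intervals; where no cell was found, the upper limit is 3 counts of the total. UMI intervals cover counting error only, and no test was run.

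Genes were matched by Ensembl ID to GENCODE release M21 (52081 of 55414 IDs, 10 of 10 genes described) for positions, transcripts and BLAST comparisons. The 10 genes and all lists were chosen with earlier results of these data known. Named genes were the 10, the Zscan4 family, GFP, the 5 genes most correlated with the sum and the 3 most abundant other 2C genes; sequence relatives, neighbours and genes sharing a start were named after their values were seen. Alternatives changed the cell filter, scaling (TMM from edgeR 4.0.16 in R 4.3.3, median of ratios, CPM without ribosomal protein and mitochondrial genes), size rule, thinning and class definitions. The steps were tested on simulated data. Python 3.11.15 was used with matplotlib 3.10.9, pandas 2.3.3, scipy 1.17.1 and numpy 2.4.6.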

Additional observations from a re-analysis of the deposited data

How the results depend on the processing

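All 10 genes passed the size rule under every setting tried, and their log2 ratios lay between 4.30 and 11.6; the trimmed-mean and median-of-ratios scalings moved the scale of the positive against the negative library by -0.29 on the log2 scale, and these ratios of CPM + 1 were 0.14 to 0.18 lower. The median level at 1 Zscan4 UMI, 6.79% of the top level, was 7.38% with no cell filter, 7.74% with a stricter one, 7.27% without cells above 2 times the median UMIs, 9.93% after thinning to 5000 UMIs, 7.79% with another thinning seed, 5.85% without cells with 2 or more endoderm marker UMIs, 6.12% with Zscan4 pseudogenes added, 4.49% with classes from other 2C genes, 16.7% with classes from GFP, 5.32% with a top class of 20 or more and 9.01% with a low class of 1 to 2; among settings chosen after seeing the data it was 4.94% after subtraction of the level without any 2C UMIs and 12.03% in cells of 20000 to 30000 UMIs. A change of seed alone moved it beyond its counting interval, so that interval understates its error. Of the values of single genes, 117 moved beyond their interval and 33 did not. Of cells with 0 Zscan4 UMIs, the share with a UMI of the 10 genes was 79.1% after thinning to 5000 UMIs and 99.4% without thinning. For at least 10 UMIs it was 9.83%. In cells with 0 other 2C UMIs, whatever their Zscan4, 90.7% had a UMI of the 10 genes. The share of cells with 5 or more of the genes was 20.2% after thinning to 5000 UMIs, 58.9% without thinning, 28.0% without cells with 2 or more endoderm marker UMIs and 34.1% in cells of 20000 to 30000 UMIs. The median rho was 0.300 after thinning to 5000 UMIs, 0.416 as Pearson's r on log2 of UMIs + 1 and 0.267 in cells with 10 or more Zscan4 UMIs. The causes were not tested. Among genes that start like Gm28940, 20 to 25 passed the size rule under other scalings, cell filters, pseudocount and ratio. With no filter on low genes 32 of 75 did. When an identity of at least 97% was required, 10 of 19 judged genes passed, against 21 of 32. No paired analysis was possible because there is only 1 library in each group, which also means that no replicate could be left out. Single copies within a cluster, and levels near that of 1 UMI per cell, are what these counts resolve least.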
